A study of Homo sapiens with 5 samples.

Results

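Interferon-stimulated genes are the set of genes that cells switch on when interferon binds its receptors. A list of 39 such genes, chosen by name with earlier results of these data known, was followed through RNA sequencing of U2OS, a human osteosarcoma cell line. All 39 names were found among the 27992 gene names counted, and 28 of them passed the minimum of 1 CPM (reads of the gene scaled to library depth) in at least 1 library, as did 15099 genes in all. The study varied the level of E2F1, which switches on genes of DNA replication, and, by its title, asked whether that level determines cell fate. Flow cytometry split by YFP brightness (YFP-negative, YFP-low, YFP-medium, or YFP-high) the cells that carry pTRIPZ-YFP-ER-E2F1, a doxycycline-inducible construct that fuses YFP, a hormone-binding oestrogen receptor part and E2F1. Parental U2OS cells without the construct made up the fifth group. Every group, parental cells included, is labelled with 48 h of doxycycline (500 ng/ml) and then 20 h of 4-hydroxytamoxifen (OHT, 90 nM), in medium with 8% fetal bovine serum, so by the labels no untreated library is among them. Each group held 1 library, so no difference below has a replicate check and no p-value is given.

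Type I interferons act through the receptor pair IFNAR1 and IFNAR2 and the kinases JAK1 and TYK2, which activate STAT proteins. STAT2 and IRF9 are parts of the complex ISGF3, which binds the interferon-stimulated response element in the promoters of its targets. The products of these genes sense viral RNA, degrade it, block its translation or trap new virus particles, and some of them, such as USP18, shut the signal off again. E2F factors bind a different element, found in the promoters of many genes of DNA replication.

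The libraries held 70.7 M to 76.5 M gene reads. E2F1 stood at 85.6 (parental), 106 (negative), 163 (low), 362 (medium) and 998 (high) CPM, so its order followed the gates. Of 10 osteosarcoma and mesenchymal markers 8 passed the minimum, with VIM between 1356 and 1567 CPM and COL1A1 lower in the gates, from 3253 CPM in parental cells and 1257 CPM in YFP-negative to 753 CPM in YFP-high, while TWIST1 had 0 reads in every library and COL1A2 stayed at or under 0.400 CPM. Of 14 leukocyte markers 2 passed it, CD68 and CORO1A, and CLEC4C, AIF1 and HLA-DRA had 0 reads in every library. Whether reads of these genes went unassigned was not tested. The summed TPM (a level corrected for gene length) of the mesenchymal list was 4810 in parental cells, 3362 in YFP-negative and 2917 in YFP-high. Of 8 epithelial markers 5 passed, with summed TPM from 811 in parental cells to 602 in YFP-high. In YFP-high against YFP-negative EPCAM was higher (log2 ratio 1.67), and the median of the 5 was -0.41. KRT5 was lower than in parental cells in YFP-negative (log2 ratio -2.00) and in YFP-high (-2.41). The summed TPM of the leukocyte list lay between 9.13 in YFP-negative and 17.6 in YFP-high. CORO1A had 4.10 CPM in the negative gate and 15.2 CPM in the high gate, and PTPRC, the defining pan-leukocyte marker, 0.324 and 0.0471 CPM. The part of these markers in the results below was not tested. Fewer cells expressing a gene and less RNA per cell cannot be told apart in such bulk libraries.

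The promoters of the listed genes were read from RefSeq (build GRCh38.p14), as windows of 250 bases before and 50 bases after each gene start. Windows were matched for 32 of the 39 genes; DHX58, IRF7, USP18, IFIT2, OAS2, OASL and MX2 were not matched. The response element was searched as GAAA followed, after any 2 bases, by another GAAA, and the E2F element as TTTGGCGC, TTTGCCGC, TTTCGCGC or TTTCCCGC, on both strands, allowing overlaps. The first was found in 21 of the 32 genes, against 4.38% of all 27305 genes with windows. The second was found in 4 of the 32, CMPK2, RSAD2, IFIH1 and OAS3, against 3.99% of all genes. A match describes letters in the window and does not show that a factor binds there. Sites of 30 bases follow for genes whose levels moved with the gates, and for IFIH1, which holds both elements. Capitals mark the matched letters, and each is written 5′ to 3′ along the strand of its gene. Positions after a gene start count the start base itself as the first.
CMPK2, E2F element starting 16 bases after the gene start, chr2:6865786-6865815, minus strand: cttcgctttcgTTTCCCGCtggcgcctggc
OAS3, E2F element starting 16 bases before the gene start, chr12:112938447-112938476, plus strand: cggagagccggGCGGGAAAacgaaaccaga
IFIH1, E2F element starting 147 bases before the gene start, chr2:162318813-162318842, minus strand: ttccttttctgTTTCCCGCggtgtccttaa
EIF2AK2, response element starting 6 bases before the gene start, chr2:37156967-37156996, minus strand: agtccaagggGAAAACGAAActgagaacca
DTX3L, response element starting 6 bases before the gene start, chr3:122564322-122564351, plus strand: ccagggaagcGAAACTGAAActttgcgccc
IFIT1, response element starting 116 bases before the gene start, chr10:89392497-89392526, plus strand: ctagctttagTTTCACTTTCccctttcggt
IFIT5, response element starting 45 bases before the gene start, chr10:89414513-89414542, plus strand: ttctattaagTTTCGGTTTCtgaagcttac
BST2, response element starting 130 bases before the gene start, chr19:17405741-17405770, minus strand: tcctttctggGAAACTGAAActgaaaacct
TRIM21, response element starting 18 bases after the gene start, chr11:4393666-4393695, minus strand: cttctgagcgGAAACTGAAAgtgaaatagg

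The CMPK2 site is also a RSAD2 site, since both genes start close together on opposite strands and 1 RSAD2 start lies 88 bases from the same letters. The DTX3L site is likewise shared with PARP9, on the opposite strand. In OAS3 a response element starts 12 bases before the gene start, within the E2F site printed above. Of the 3 genes with windows that rose in YFP-high, EIF2AK2 and DTX3L hold the response element. CMPK2 holds the E2F element, in only 1 of its windows. Of the 8 with windows that fell, IFIT1, IFIT5, BST2 and TRIM21 hold the response element, and none holds the E2F element. DDX58, listed in RefSeq as RIGI, STAT2, SAMD9L and SP100 have neither in these windows. Of the 13 analysed genes with windows that were not called in YFP-high against YFP-negative, 11 hold the response element and 2 the E2F element. The part of either element in the calls was not tested.

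**Figure D1:**
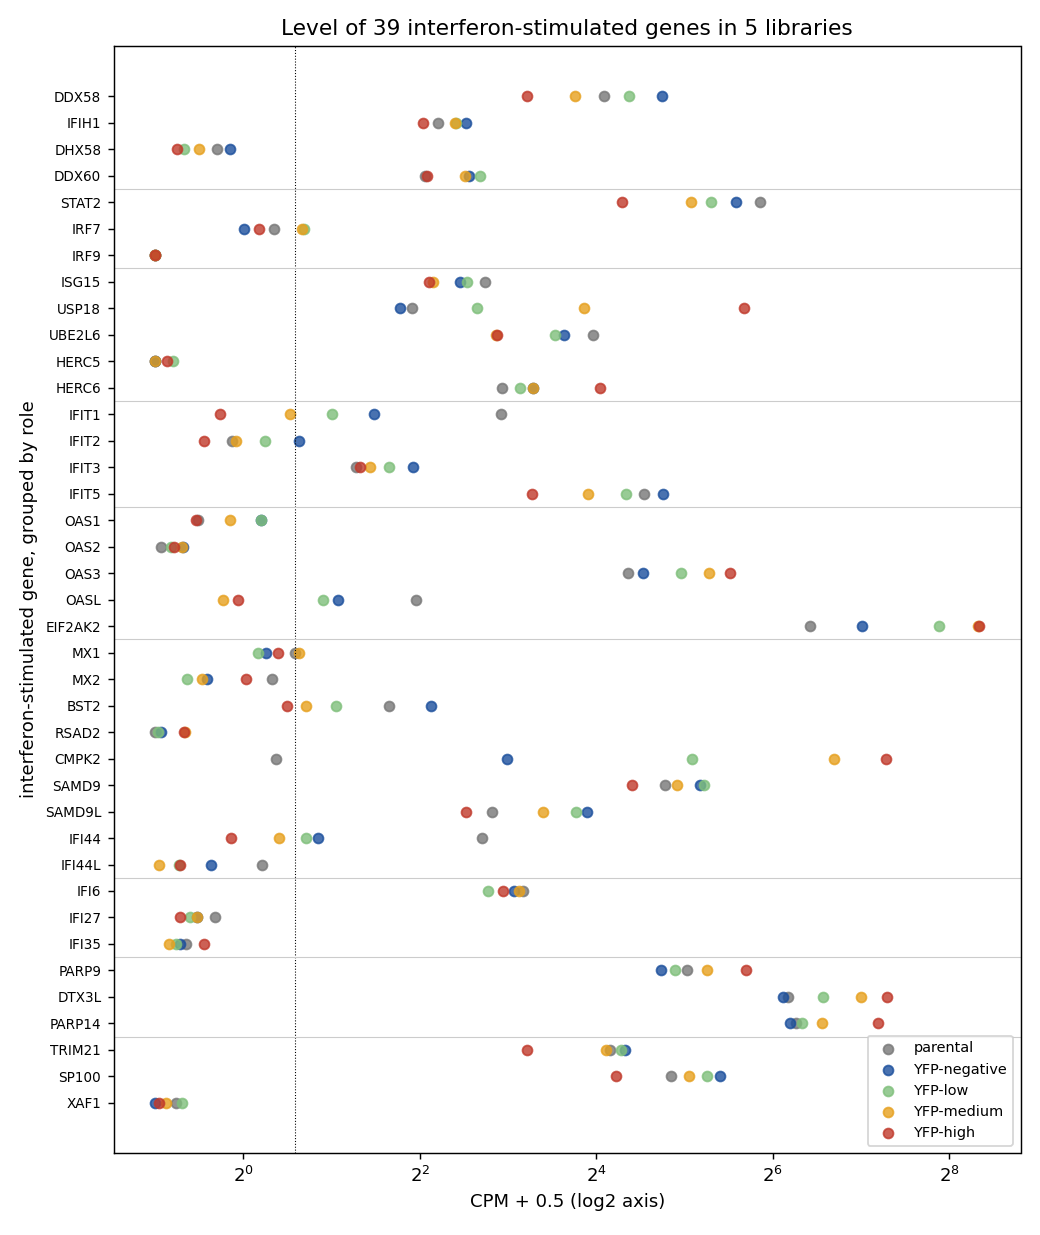
Level of the 39 genes (rows, grouped by role) in the 5 libraries (colours), as CPM + 0.5 on a log2 axis; the dotted line marks 1 CPM. CMPK2 and USP18 spread widest to the right with YFP, and 11 genes stay left of the line in every library.

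In YFP-high against YFP-negative the list moved in both directions: CMPK2 and USP18 had the largest changes, both upward, and more genes fell than rose. Calls required that the log2 ratio of a gene's CPM, after adding 0.5, pass 2-fold and that the exact 95% counting interval of its fold exclude 1. Folds in the text are plain CPM ratios without the added 0.5, whereas log2 ratios include it, so the log2 ratio of a gene near 1 CPM is smaller than its fold; IFIT1, for example, has a fold of 6.93 and a log2 ratio of -1.75. In YFP-high against YFP-negative 4 of 28 genes rose, CMPK2, USP18, EIF2AK2 and DTX3L, where 20.3% of all analysed genes were called higher. In the same comparison 10 of 28 fell, DDX58, STAT2, IFIT1, IFIT2, IFIT5, OASL, BST2, SAMD9L, TRIM21 and SP100, where 11.3% of all analysed genes were called lower. The genes that fell made up 35.7% of the 28 and those that rose 14.3%. IFIT2 passed the minimum of 1 CPM through YFP-negative alone, so its inclusion depends on the library in which it was highest. The median log2 ratio of the 28 genes was -0.54, beside -0.05 over all analysed genes. DESeq2 size factors gave 7 higher and 10 lower, since OAS3, PARP9 and PARP14 then passed 2-fold, beside 21.2% and 10.3% of all genes. Total-count scaling gave 3 and 13, beside 16.0% and 18.97%, so the share of all genes called lower grew with it. UBE2L6, SAMD9 and IFI44 were then called lower as well. Total-count scaling moved the median of all genes by -0.26 in this comparison, and no member called here changed direction under it.

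Against YFP-negative, the lower gates showed less of this. In YFP-low 1 gene rose, CMPK2, beside 2.07% of all genes, and 1 fell, BST2, beside 0.0596%. In YFP-medium 3 rose, CMPK2, USP18 and EIF2AK2, beside 9.75%, and 2 fell, BST2 and OASL, beside 2.25%. Total-count scaling gave 3 higher and 5 lower there, beside 7.18% and 5.19% of all genes, and the deposited TPM 3 and 3, beside 8.28% and 3.66%. Calls from the TPM used 2-fold alone, without a counting interval. They cover the 27 listed genes, of 15393 in all, with at least 1 TPM in 1 library. The single steps gave USP18 and CMPK2 higher and OASL lower from YFP-low to YFP-medium, beside 2.74% and 0.185%. From YFP-medium to YFP-high USP18 alone rose, beside 9.17%, and 0 genes fell, beside 1.31%. Of the 28 genes 12 were lower in every gate than in the gate below (42.9%, beside 28.2% of all genes) and 7 were higher in every gate (25.0%, beside 23.9%). The highest gate was YFP-negative for 14 members, YFP-low for 4, YFP-medium for 2 and YFP-high for 8. Of all genes 37.3% peaked in YFP-negative and 37.9% in YFP-high.

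**Figure D2:**
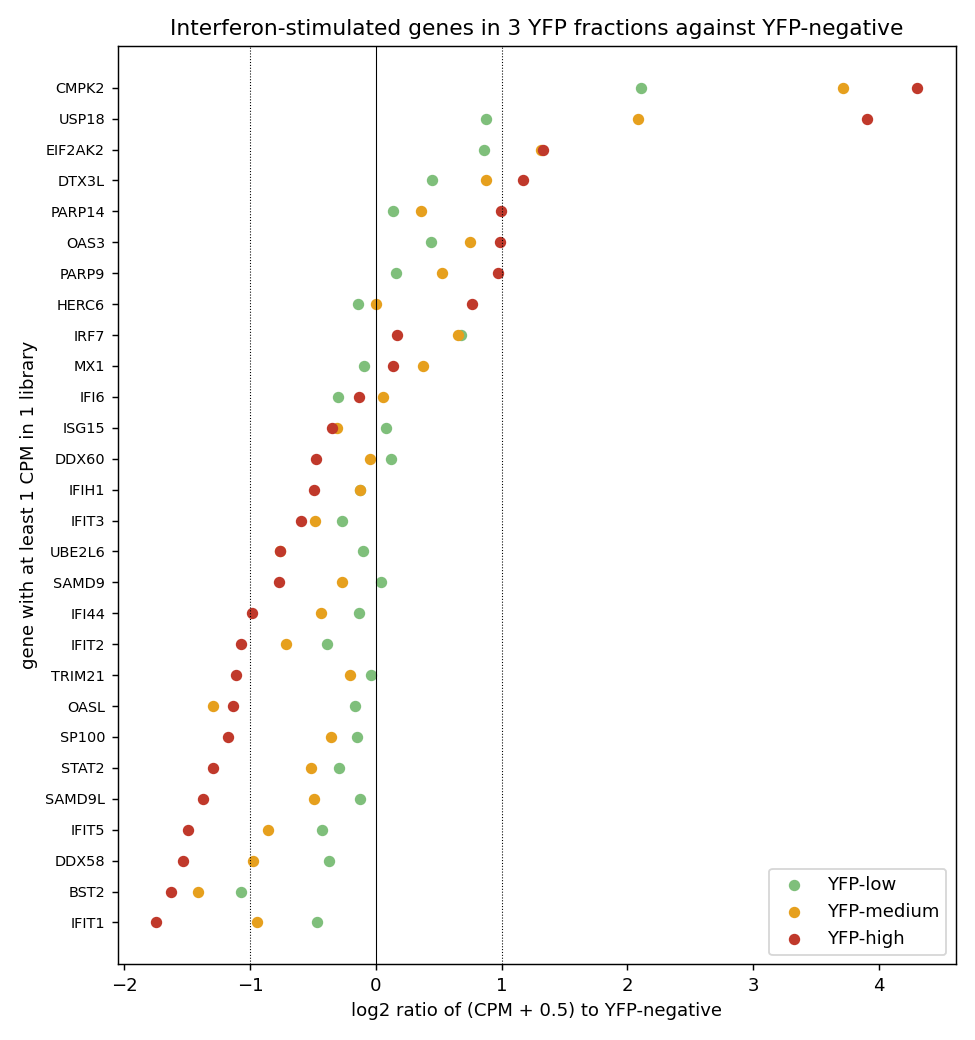
Log2 ratio of CPM + 0.5 to YFP-negative (x axis) for the 28 analysed genes (rows) in YFP-low, YFP-medium and YFP-high; dotted lines mark 2-fold. CMPK2 and USP18 reach 4.30 and 3.90 in YFP-high, whereas the lower genes end between -1.07 and -1.75.

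CMPK2, a mitochondrial nucleoside monophosphate kinase that supplies deoxynucleotides, changed most. It stood at 0.794 (parental), 7.40 (negative), 33.5 (low), 103 (medium) and 156 (high) CPM. It was lowest in parental cells and higher in every gate than in the gate below. Its fold over YFP-negative was 4.53 in YFP-low (counting interval 4.15 to 4.95), 13.9 in YFP-medium (12.8 to 15.1) and 21.0 in YFP-high (19.4 to 22.8). Against parental cells YFP-high was 196-fold higher (153 to 255), and YFP-negative already 9.32-fold (7.18 to 12.3). On the log2 scale 48.9% of the change to YFP-high was present in YFP-low and 86.2% in YFP-medium.

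RSAD2, which encodes viperin, an antiviral enzyme that makes a chain-terminating nucleotide, is the neighbour of CMPK2 and is usually induced together with it by interferon. From parental cells through the gates it had 0, 2, 1, 9 and 8 reads. CMPK2 had 63, 616, 2598, 6969 and 9916 reads in the same libraries. RSAD2 thus stayed at or under 0.133 CPM in every library and was too low to be analysed.

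USP18, the protease that removes ISG15 from proteins and also blocks the interferon receptor, had the next largest rise. It stood at 3.25 (parental), 2.92 (negative), 5.77 (low), 14.0 (medium) and 50.6 (high) CPM. Parental and YFP-negative cells were close, and the largest step was the last. USP18 rose 4.78-fold from YFP-negative to YFP-medium (4.15 to 5.53), and 17.3-fold to YFP-high (15.2 to 19.8). From YFP-medium to YFP-high it rose 3.62-fold (3.37 to 3.90), while CMPK2 had a ratio of 1.51 (1.47 to 1.56) and was not called. In YFP-low 22.4% of the log2 change was present, and 53.3% in YFP-medium. USP41, a near-identical copy of USP18, had 3, 11, 2, 8 and 43 reads from parental to YFP-high, against 258, 243, 447, 945 and 3225 for USP18. The sources used here do not say how reads shared by the copies were assigned.

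EIF2AK2 encodes PKR, a kinase that halts translation when it binds double-stranded RNA. It stood at 85.0 (parental), 129 (negative), 235 (low), 321 (medium) and 323 (high) CPM. The last pair of gates held nearly the same level. Its ratio to YFP-negative was 2.49 in YFP-medium (2.43 to 2.55) and 2.51 in YFP-high (2.45 to 2.57). In TPM, EIF2AK2 was the highest of the 39 genes in every library, from 51.9 in parental cells to 182 in YFP-medium. In the GENCODE v29 annotation its exons overlap GPATCH11 on the opposite strand, and the sources used here do not say whether reads were counted by strand.

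DTX3L, PARP9 and PARP14 take part in ADP-ribosylation and act on interferon signalling and DNA damage, and DTX3L and PARP9 work as a complex. DTX3L stood at 71.5 (parental), 69.1 (negative), 94.6 (low), 127 (medium) and 156 (high) CPM. It climbed at each gate and was 2.26-fold higher in YFP-high than in YFP-negative (2.19 to 2.34), a call that total-count scaling ended (log2 ratio 0.90). PARP9, at 32.1, 26.0, 29.2, 37.7 and 51.4 CPM, and PARP14, at 76.2, 72.8, 79.9, 93.3 and 145 CPM, had log2 ratios of 0.97 and 0.99 and stayed just under 2-fold. DTX3L and PARP9 share exonic bases on opposite strands, so their reads may be mixed.

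The oligoadenylate synthetases, which make the messenger that activates RNase L, divided. OAS3 stood at 20.1 (parental), 22.5 (negative), 30.7 (low), 38.1 (medium) and 45.1 (high) CPM. It was higher at every gate, with a log2 ratio of 0.99 to YFP-negative, just short of 2-fold, and was 2.25-fold higher in YFP-high than in parental cells. The latter call ended with total counts (log2 ratio 0.90) and the deposited TPM (0.99). OASL, a family member without synthetase activity, stood at 3.37 (parental), 1.60 (negative), 1.37 (low), 0.355 (medium) and 0.455 (high) CPM. It was 4.51-fold lower in YFP-medium and 3.51-fold lower in YFP-high (2.34 to 5.45) than in YFP-negative. With a pseudocount of 2 CPM both OASL calls ended. OAS1 and OAS2 were too low to be analysed.

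**Figure D3:**
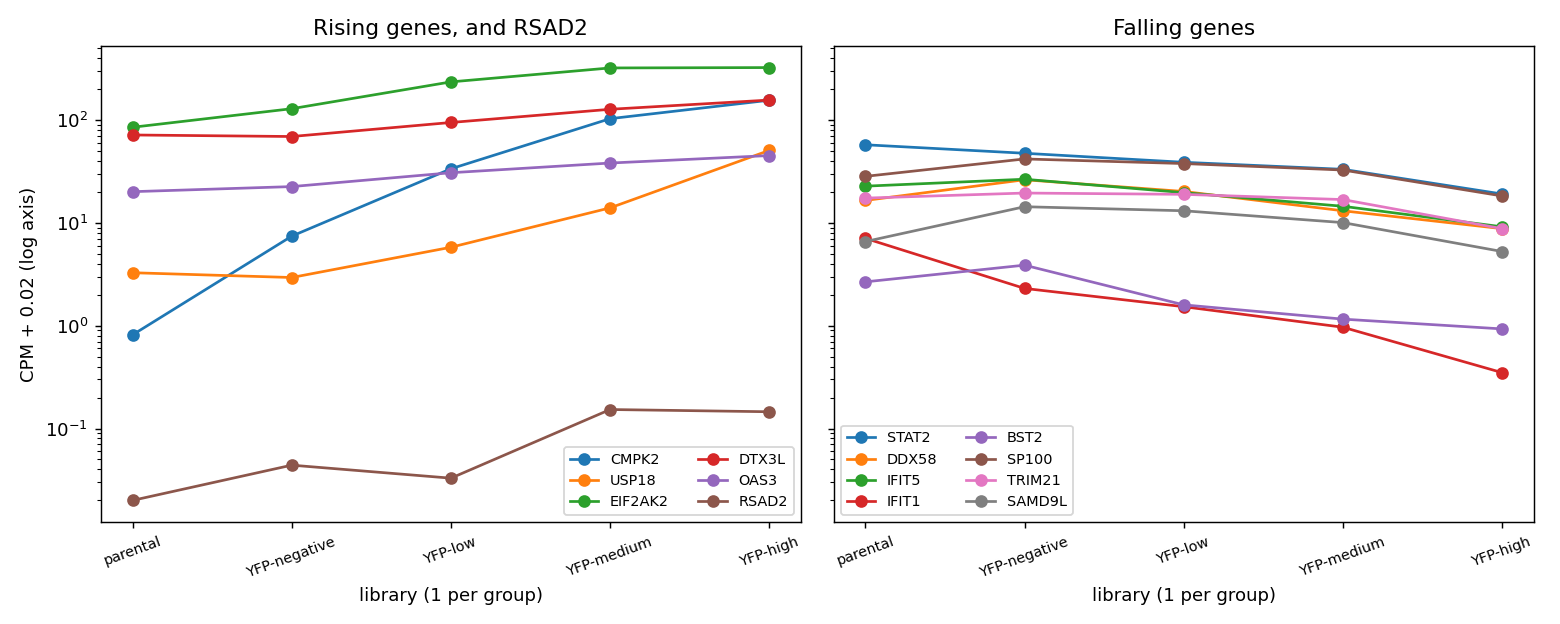
Level across the 5 libraries (x axis) of CMPK2, USP18, EIF2AK2, DTX3L, OAS3 and RSAD2 (left) and of 8 genes that fell in YFP-high against YFP-negative (right), as CPM plus the small constant on the log axis, without error bars as each point is 1 library. CMPK2 climbs from 0.794 to 156 CPM, whereas IFIT1 drops from 7.05 to 0.330 CPM.

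The IFIT proteins bind foreign RNA by its 5′ end and block its translation, and 3 of the 4 fell in YFP-high against YFP-negative, beside 11.3% of all genes. IFIT1 stood at 7.05 (parental), 2.28 (negative), 1.51 (low), 0.946 (medium) and 0.330 (high) CPM. It was lower at every step, 6.93-fold lower in YFP-high than in YFP-negative (4.40 to 11.5) and 21.4-fold lower than in parental cells (13.9 to 34.8). IFIT5 stood at 22.7 (parental), 26.5 (negative), 19.6 (low), 14.5 (medium) and 9.13 (high) CPM. It is the most abundant of the family in CPM and was lower at every gate, down to a log2 ratio of -1.49. IFIT2 had 0.416, 1.05, 0.684, 0.443 and 0.235 CPM, a 4.44-fold fall from YFP-negative to YFP-high (2.55 to 8.27). It passed the minimum through YFP-negative alone, where it was highest, so its place among the 3 that fell depends on that library. With a pseudocount of 2 CPM the calls of IFIT1 and IFIT2 ended and only IFIT5 of the family stayed called. IFIT3, at 3.28 CPM in the negative gate and 2.01 CPM in the high gate, was not called.

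RIG-I, encoded by DDX58, senses viral RNA in the cytoplasm and signals through MAVS. DDX58 stood at 16.5 (parental), 26.2 (negative), 20.2 (low), 13.1 (medium) and 8.76 (high) CPM. It peaked in YFP-negative and was 2.99-fold lower in YFP-high (2.73 to 3.29), but against parental cells it was not called. The other sensors that were analysed, IFIH1 (which encodes MDA5) and DDX60, had log2 ratios of -0.49 and -0.48 and were not called, and DHX58 was too low.

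STAT2, a subunit of ISGF3, stood at 57.4 (parental), 47.5 (negative), 38.8 (low), 33.1 (medium) and 19.1 (high) CPM. It was lower in each library than in the one before, 2.49-fold lower in YFP-high than in YFP-negative (2.34 to 2.66) and 3.01-fold lower than in parental cells. IRF7, which amplifies interferon transcription, stayed between 0.505 and 1.11 CPM without a call among the gates. IRF9, the DNA-binding member of ISGF3, is listed at 0 reads in every library. In GENCODE v29 another coding gene, AL136295.5, overlaps its exons on the same strand, and the part of that overlap in the 0 was not tested.

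Among the antiviral effectors, BST2, or tetherin, which holds budding virus at the cell surface, was the first to fall. It stood at 2.65 (parental), 3.86 (negative), 1.57 (low), 1.14 (medium) and 0.910 (high) CPM. Already 2.45-fold lower in YFP-low (1.98 to 3.04), it was 4.24-fold lower in YFP-high (3.20 to 5.71). A pseudocount of 2 CPM ended the BST2 calls in YFP-low and YFP-medium against YFP-negative and in YFP-high against parental cells. SAMD9L, a restriction factor for poxviruses, stood at 6.56 (parental), 14.3 (negative), 13.1 (low), 10.0 (medium) and 5.24 (high) CPM. It fell 2.73-fold from YFP-negative to YFP-high (2.42 to 3.10), and was not called against parental cells. MX1 stayed between 0.619 and 1.05 CPM and was not called in any comparison among the gates.

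TRIM21, a cytosolic antibody receptor and ubiquitin ligase, stood at 17.4 (parental), 19.5 (negative), 18.9 (low), 16.8 (medium) and 8.76 (high) CPM. SP100, a component of PML nuclear bodies, stood at 28.3 (parental), 41.8 (negative), 37.7 (low), 32.6 (medium) and 18.2 (high) CPM. Both changed mostly in the last gate: TRIM21 fell 2.22-fold (2.02 to 2.45) with 18.5% of the log2 change present in YFP-medium, and SP100 2.29-fold (2.14 to 2.45) with 30.1%. A pseudocount of 2 CPM put TRIM21 just under 2-fold.

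ISG15, the ubiquitin-like modifier, and UBE2L6, its conjugating enzyme, were not called against YFP-negative with TMM factors. Total counts called UBE2L6 lower in YFP-high against YFP-negative. ISG15 had 6.19, 4.98, 5.30, 3.92 and 3.80 CPM from parental to YFP-high, and UBE2L6 had 15.1, 11.9, 11.0, 6.78 and 6.81 CPM. UBE2L6 was 2.21-fold lower in YFP-high than in parental cells, a call that ended with a pseudocount of 2 CPM (log2 ratio -0.95). HERC6, a ligase of the HERC family, had 7.12, 9.22, 8.30, 9.24 and 16.0 CPM and was 2.24-fold higher in YFP-high than in parental cells. That call ended with total counts (log2 ratio 0.88), a pseudocount of 2 CPM (0.98) and the deposited TPM (0.94). With TMM factors USP18, which reverses the conjugation, thus rose without a call for ISG15 or UBE2L6 in YFP-high against YFP-negative.

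SAMD9 and IFI6 were not called in any comparison among the gates with TMM factors. SAMD9, the paralogue of SAMD9L, had 26.9, 35.6, 36.8, 29.5 and 20.7 CPM, a log2 ratio of -0.77 in YFP-high against YFP-negative. Total counts called SAMD9 lower in that comparison. IFI6, a mitochondrial and endoplasmic reticulum protein, stayed between 6.31 and 8.47 CPM. The 11 genes that did not pass the minimum were DHX58, IRF9, HERC5, OAS1, OAS2, MX2, RSAD2, IFI44L, IFI27, IFI35 and XAF1. Their highest level was 0.756 CPM, MX2 in parental cells, with 60 reads. HERC5, the main ligase for ISG15, had 0, 0, 6, 0 and 3 reads from parental to YFP-high, and XAF1 had 7, 0, 9, 3 and 1. At 3 reads, the limit that a count of 0 allows, a gene would stand at 0.0361 to 0.0471 CPM.

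In TPM, the 39 genes summed to 382 (parental), 405 (negative), 462 (low), 525 (medium) and 590 (high). CMPK2, EIF2AK2 and USP18 made up 57.1, 87.7, 170, 263 and 341 TPM of these sums, and the remaining genes 325, 317, 291, 263 and 249 TPM. The summed level of the list was therefore highest in YFP-high, although more of its genes fell than rose there against YFP-negative.

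YFP-negative cells carry the construct and bear the same treatment label as the parental cells, and some of the listed genes already differed between them. Whether the parental cells were in fact treated and sorted is not settled by the labels. CMPK2 and SAMD9L were higher in YFP-negative, where 2.21% of all genes were called higher, and IFIT1 and IFI44 lower, where 2.85% were called lower. SAMD9L was 2.19-fold higher (1.97 to 2.43) and IFIT1 3.09-fold lower (2.61 to 3.66). The SAMD9L call ended with a pseudocount of 2 CPM (log2 ratio 0.93) and with the deposited TPM (0.98). IFI44, whose product is a cytoplasmic interferon-induced protein, stood at 6.04 (parental), 1.30 (negative), 1.14 (low), 0.828 (medium) and 0.408 (high) CPM. It was highest in parental cells, 4.65-fold above YFP-negative (3.77 to 5.79) and 14.8-fold above YFP-high (9.98 to 22.9). Between YFP-negative and YFP-high its fold was 3.18 downward (2.06 to 5.09). Its log2 ratio with the added 0.5 was -0.99, just short of a call, but total counts and the deposited TPM called it lower. Carriage of the construct and any other difference between these cell populations cannot be told apart in this comparison.

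The lower gates were also set against parental cells. In YFP-low, EIF2AK2 and CMPK2 were higher, beside 5.96% of all genes, and IFIT1, OASL and IFI44 lower, beside 4.4%. In YFP-medium, USP18, EIF2AK2 and CMPK2 were higher, beside 12.5%, and UBE2L6, IFIT1, OASL and IFI44 lower, beside 8.17%. Each of these comparisons shares the parental library with the one that follows.

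Against parental cells, 6 genes were higher in YFP-high, USP18, HERC6, OAS3, EIF2AK2, CMPK2 and DTX3L, beside 21.3% of all genes. Lower were 7, STAT2, UBE2L6, IFIT1, IFIT5, OASL, BST2 and IFI44, beside 14.6%. Total-count scaling gave 3 and 9, beside 17.5% and 21.1% of all genes, and the deposited TPM also 3 and 9, beside 19.3% and 17.6%. The TPM calls lack a counting interval, and the 9 include IFI27, which did not pass the minimum in CPM. The calls of HERC6, OAS3 and DTX3L ended under both. SAMD9L and SP100, which fell from YFP-negative, were not called against parental cells under either scaling. IFIT2, which also fell, was not called with total counts. It did not reach 1 TPM in any library, so the deposited TPM could not call it. DDX58 and TRIM21 were not called against parental cells with TMM factors, but total counts called both lower and the deposited TPM called TRIM21 lower.

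**Figure D4:**
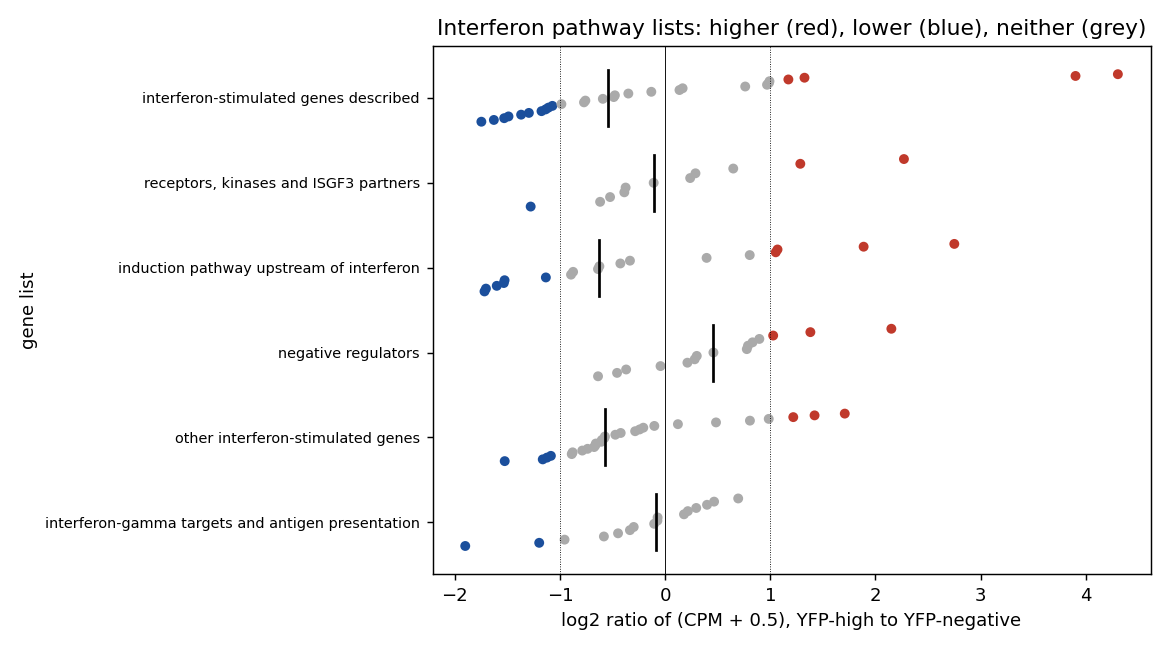
Log2 ratio of YFP-high to YFP-negative (x axis) for each analysed gene (points) of the interferon pathway lists (rows), red where higher, blue where lower and grey where not called, with a black bar at each list's median. The lists spread to both sides of 0, with MB21D1 at 2.75 and GBP1 at -1.90.

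None of the 21 interferon ligand genes reached the minimum; 15 had 0 reads in every library and no ligand had more than 3 reads in a library. Of 11 receptor and kinase genes, all analysed, 2 rose in YFP-high against YFP-negative and 1 fell, with a median log2 ratio of -0.11. The shares of all genes in this comparison, 20.3% higher and 11.3% lower, are the background for this and the next lists, and the receptor counts lie near them. JAK2, a kinase of the interferon-gamma receptor, had 10.8, 13.9, 16.9, 38.3 and 68.8 CPM from parental to YFP-high and rose 4.96-fold (4.65 to 5.30). IL28RA, the interferon-lambda receptor chain, rose 2.51-fold, and IFNGR1, an interferon-gamma receptor chain, fell 2.48-fold (2.29 to 2.68).

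Of 20 genes that lead to interferon production 18 were analysed, of which 4 rose, near the 20.3% of all genes, and 6 fell, beside 11.3%, with a median of -0.63. MB21D1, the cytosolic DNA sensor cGAS, had 10.9, 18.7, 49.0, 101 and 128 CPM from parental to YFP-high and rose 6.88-fold from YFP-negative (6.51 to 7.27). TMEM173, its adaptor STING, fell 4.11-fold (3.25 to 5.25). IFI16, another DNA sensor, fell 3.35-fold (3.14 to 3.58), and the transcription factor IRF1 rose 3.79-fold (3.55 to 4.04). MAVS, the adaptor of the RNA sensors, had 127, 94.2, 71.2, 49.6 and 30.7 CPM and fell 3.06-fold from YFP-negative (2.92 to 3.22). MB21D1 and TMEM173 thus moved in opposite directions, whereas DDX58 and MAVS both fell.

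Of 16 negative regulators 15 were analysed, of which 3 rose, near the 20.3% of all genes, and 0 fell, beside 11.3%, with a median of 0.46. SOCS3, which inhibits JAK kinases, had 44.9, 32.6, 44.7, 95.7 and 147 CPM and rose 4.49-fold from YFP-negative (4.31 to 4.69). SOCS1 had 7.25, 1.57, 1.19, 0.916 and 2.06 CPM, highest in parental cells. Of 38 further interferon-stimulated genes 28 were analysed, of which 3 rose, beside 20.3% of all genes, and 4 fell, near the 11.3%, with a median of -0.58. ZC3HAV1, the CpG-binding antiviral protein ZAP, had 80.6, 84.3, 136, 215 and 276 CPM and rose 3.28-fold (3.19 to 3.37). TRIM5, a retroviral restriction factor, fell 2.95-fold, and PML 2.27-fold.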

How the data were processed

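RNA of 5 U2OS groups, 1 library each, was sequenced. The authors deposited raw read counts per gene and, separately, TPM. Per the submitters' processing notes, reads were handled with HTSeq 0.6.0, HISAT2 2.0.3, Trimmomatic 0.36, bcl2fastq and CASAVA 1.8.2, with hg19 as build. For annotation, strand setting and TPM tool the sources used here give nothing. HTSeq's classes of unassigned reads and 1 entry without a gene name were left out.

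Libraries (70.7 M to 76.5 M gene reads) were scaled with TMM factors (edgeR 4.0.16, R 4.3.3) over genes with at least 1 CPM in 1 library. Ratios are log2 of CPM plus 0.5. A call needs 2-fold and an exact (Clopper-Pearson) 95% counting interval excluding 1, in Python 3.11.15 with scipy 1.17.1. For the deposited TPM a call needs 2-fold alone, among genes with at least 1 TPM in 1 library. Intervals cover counting error only, not biological variation. The 3-read limit is 0.0361 to 0.0471 CPM. The procedure was tested on simulated data. Alternatives covered scaling (total counts, DESeq2 1.42.0), the filter (none, or 5 CPM), the pseudocount (2 CPM), deposited TPM, a 1.5-fold rule and the parental baseline.

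The genes and lists were chosen with earlier results of these data known. Values per library are given for genes called in any comparison; of each pathway list up to 6 called genes with the largest ratio may be named. The promoter sites shown, and SAMD9, IFI6, IFIT3, MX1, ISG15, PARP9 and PARP14, were chosen after their values were seen. Promoter windows come from RefSeq on GRCh38.p14, and gene overlaps from GENCODE v29, used for names and neighbours only.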

Additional observations from a re-analysis of the deposited data

How the results depend on the processing

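Of the single called genes, 189 values kept direction and call, 20 lost the call and 0 reversed. Counts of called genes stayed within 1.5 times the reported count in 79 cases and moved further in 25. Where one moved, the alternative's own construction sets it for the filters, the pseudocount and the 1.5-fold rule; for the others the cause was not tested.

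Total counts moved the median of all genes by -0.20 in YFP-medium against YFP-negative, -0.12 in YFP-medium against YFP-low and -0.23 in YFP-high against parental, and deposited TPM by -0.10 for YFP-medium and -0.12 for YFP-high (both against YFP-negative) and by -0.11 in YFP-high against parental. With total counts, YFP-medium against YFP-negative had 5 lower, beside 5.19% of all genes, and a median of -0.45. The same scaling gave a median of -0.77 in YFP-high against YFP-negative and -0.30 in YFP-medium against YFP-low. For YFP-high against parental it gave 3 higher, beside 17.5%, and a median of -0.43. DESeq2 size factors gave 7 higher in YFP-high against YFP-negative, beside 21.2% of all genes. Without a filter the medians were -0.12 for YFP-medium and -0.35 for YFP-high (both against YFP-negative), and 0.034 in YFP-negative against parental. A filter of 5 CPM left 0 lower in YFP-low and YFP-medium against YFP-negative and in YFP-medium against YFP-low. The shares of all genes there were 0.0408%, 2.20% and 0.130%. In YFP-high against YFP-negative this filter gave 4 higher and 7 lower of 22 listed genes, beside 19.8% and 11.5%. A pseudocount of 2 CPM also left 0 lower in YFP-low and YFP-medium against YFP-negative and in YFP-medium against YFP-low. The shares of all genes there were 0.00662%, 0.927% and 0.0397%. This pseudocount gave 6 lower, beside 7.14%, with a median of -0.39 in YFP-high against YFP-negative. It also gave 1 higher in YFP-negative against parental, beside 1.09%. Its medians were -0.12 in YFP-high against YFP-medium and -0.16 in YFP-high against parental. Deposited TPM gave a median of -0.66 in YFP-high against YFP-negative. It gave 1 higher in YFP-negative against parental, beside 2.42%, and 3 higher in YFP-high against parental, beside 19.3%.

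Against YFP-negative, the 1.5-fold rule gave 4 higher in YFP-low, beside 7.15% of all genes, and 8 higher in YFP-high, beside 29.03%. In YFP-medium it gave 6 higher and 7 lower, beside 18.9% and 11.96%. The same rule gave 3 lower in YFP-medium against YFP-low, beside 3.44%. For YFP-high against YFP-medium it gave 4 higher and 6 lower, beside 17.6% and 10.8%. Against parental cells it gave 6 higher in YFP-negative, beside 6.93%, and 11 lower in YFP-high, beside 28.002%. Against the parental baseline, YFP-low had 2 higher and 3 lower, beside 5.96% and 4.40% of all genes, with the median reversed to 0.20. YFP-medium had 4 lower, beside 8.17%, with the median reversed to 0.14, and YFP-high had a median of -0.26. No paired analysis was possible because each group holds 1 library. Genes near 1 CPM, such as IFIT2 and OASL, are limited by their read numbers.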

Other observations

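Of 27 interferon-gamma target and antigen presentation genes 16 were analysed, of which 0 rose in YFP-high against YFP-negative, beside 20.3% of all genes, and 2 fell, near the 11.3% of all genes. GBP1, an interferon-induced GTPase, had 1.68, 4.88, 3.82, 2.28 and 0.942 CPM from parental to YFP-high, a 5.18-fold fall from YFP-negative (3.94 to 6.91). GBP2 fell 2.67-fold (2.15 to 3.33). PSMB8, an immunoproteasome subunit, and IDO1 had 0 reads in every library and were not analysed. TAP1 had 0 reads in every library except YFP-negative, and HLA-E had 0 reads in parental cells alone. Whether reads of these genes went unassigned was not tested.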
